A study of Mus musculus with 4 samples.

Results

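The transcripts described here are 121 protein-coding mouse genes whose names are Zfp followed by a number, measured in RNA of blood platelets. They were chosen by their level: a deposited value of at least 50 in at least 1 of the 4 libraries, among genes listed in both deposited tables and without Zfp36, a CCCH-type RNA decay factor. Of 290 such Zfp genes among the 14652 genes in both tables, 121 passed and 169 stayed below the value. Because a gene could pass through its highest library alone, levels are given as a description. The last genes to pass were Zfp748 with a highest value of 51.5 and Zfp444 and Zfp366 with 52.5 each, and the first to miss were Zfp41 with 49.7, Zfp326 with 49.4 and Zfp358 with 46.8.

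The study sequenced 4 libraries, each 1 pool of platelets from 7 male mice. The WT library came from wild-type littermates and the cKO library from mice with a conditional, platelet-specific knockout of HuR (gene Elavl1, an RNA-binding protein that stabilises AU-rich mRNAs), both at 3 months of age. The Young library came from mice of 3 months and the Old library from mice of 24 months, both of genotype WT. No source used here names the Cre driver of the knockout. Where 4 values stand in a row below, their order is WT, labelled cKO, Young and Old. With 1 library per group no spread between mice could be estimated, so no test across replicates was possible and every interval below covers counting error only.

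Most Zfp proteins carry runs of C2H2 zinc fingers, short modules in which a pair of cysteines and a pair of histidines hold a zinc ion and which usually read DNA in tandem. Many also carry a KRAB domain, which recruits the co-repressor Trim28 and, through it, silencing of retrotransposons and genes. Others carry a SCAN domain for pairing with other proteins, and a few have another use altogether, such as binding RNA or microtubules. Platelets have no nucleus, so their transcripts of nuclear factors were made in the parent megakaryocyte or come from other cells in the preparation.

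The fingers themselves are shown for 10 members, the most abundant one and most of those on which the comparisons below turn. Each line is the coding DNA of 1 finger of 63 bases, from GENCODE M21 transcripts on the build GRCm38 (mm10), 5′ to 3′ on the coding strand. It is the first finger with the spacing C-N2-C-N12-H-N3-H (N for any residue) inside 1 exon, and capitals mark the codons of the 2 cysteines and 2 histidines. Zfp664 lies at chr5:124885556-124885618 on the plus strand, Zfp219 at chr14:52009420-52009482 on the minus strand, Zfp180 at chr7:24105115-24105177 (plus) and Zfp746 at chr6:48064174-48064236 (minus). Zfp81 lies at chr17:33335107-33335169 (minus), Zfp101 at chr17:33382058-33382120 (minus), Zfp114 at chr7:24181152-24181214 (plus), Zfp317 at chr9:19646897-19646959 (plus), Zfp318 at chr17:46410308-46410370 (plus) and Zfp991 at chr4:147178891-147178953 (plus).
Zfp664: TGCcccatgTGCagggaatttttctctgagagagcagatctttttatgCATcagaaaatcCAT
Zfp219: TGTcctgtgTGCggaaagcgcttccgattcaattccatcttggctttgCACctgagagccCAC
Zfp180: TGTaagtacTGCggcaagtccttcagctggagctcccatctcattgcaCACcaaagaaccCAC
Zfp746: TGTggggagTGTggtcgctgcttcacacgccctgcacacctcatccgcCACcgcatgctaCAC
Zfp81: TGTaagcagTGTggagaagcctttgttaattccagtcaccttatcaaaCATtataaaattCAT
Zfp101: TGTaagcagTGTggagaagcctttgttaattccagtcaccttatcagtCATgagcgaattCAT
Zfp114: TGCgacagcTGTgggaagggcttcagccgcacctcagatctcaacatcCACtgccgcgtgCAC
Zfp317: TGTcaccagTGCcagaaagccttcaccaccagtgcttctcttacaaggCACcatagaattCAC
Zfp318: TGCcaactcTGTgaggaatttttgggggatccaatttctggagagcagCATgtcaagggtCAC
Zfp991: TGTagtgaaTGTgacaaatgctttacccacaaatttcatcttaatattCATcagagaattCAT

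The 4 capital codons encode the same residues in all 10 fingers because the pattern used to choose the fingers requires them. The bases between them varied. Over the 45 pairs the median identity was 47.6% of bases and the lowest was 30.2%. Zfp81 and Zfp101 stood apart, with 57 of 63 bases identical (90.5%), while the next pair, Zfp101 and Zfp991, reached 60.3%. The genes Zfp81 and Zfp101 are neighbours on chromosome 17, with 1629 bases between their annotated ends.

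By domain the 121 members were a mixed set. A KRAB match was found in 48, a SCAN match without KRAB in 4, and neither in 69, of which 61 had at least 2 predicted fingers and 8 had 0 or 1. The median was 9 fingers per protein. The most were in Zfp142 (36 fingers), Zfp236 (30), and Zfp646 and Zfp521 (27 each). No C2H2 finger was found in Zfp330 and Zfp703, and 1 each was found in Zfp706, Zfp598, Zfp395, Zfp608, Zfp609 and Zfp704. Members held fewer KRAB proteins than the Zfp genes under the level threshold, where 119 of 169 (70.4%) had a match against 48 of 121 (39.7%), and their median finger number was 9 against 11. In the transcription factor annotation of the deposited tables, 103 members were listed as zf-C2H2, 1 as ZBTB and 17 in no family.

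Libraries held between 17702341 reads (labelled cKO) and 18472149 reads (Old), and platelet markers made up 50355 to 61742 RPM (reads scaled to the library total), with all 12 detected in each library. Elavl1, the targeted gene, had 876 reads in WT and 1481 in the library labelled cKO, a ratio of 1.66 (1.53 to 1.81), so the label is used below as a label only. Erythroid markers summed to 493 RPM in WT, 1837 under the label cKO, 1428 in Young and 1086 in Old. Nuclear retained RNAs summed to 21.2, 56.4, 19.7 and 72.4 RPM in the same order. Of these 5 RNAs, 1 was not listed in the table of WT and cKO and 2 were not listed in that of Young and Old. Of the listed ones 1, 0, 0 and 1 were at 0 reads, so the sums cover different RNAs. Neutrophil markers summed to 68.4, 41.0, 31.5 and 838 RPM, with 4 of 12 not listed in the table of WT and cKO, and 0, 1, 3 and 0 of the listed ones at 0 reads. B cell markers summed to 435, 407, 358 and 102 RPM, with none of 12 at 0 reads. Their part in the values below was not tested.

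All 121 members together took 0.227% of reads in WT (Wilson 95% interval 0.224% to 0.229%), 0.235% under the label cKO (0.233% to 0.237%), 0.237% in Young (0.235% to 0.240%) and 0.205% in Old (0.203% to 0.207%). The family is thus a minor part of platelet RNA in each library. A value of at least 50 was reached by 97 members in WT, 97 under the label cKO, 107 in Young and 83 in Old. It was reached in all 4 libraries by 70 members, in 3 by 18, in 2 by 17 and in 1 by 16. The median member had 93, 81, 110 and 68 reads in WT, cKO, Young and Old, and the lowest single values were 13 reads (Zfp64), 15 (Zfp771), 28 (Zfp300) and 4 (Zfp60).

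Zfp664, a 9-finger protein without a KRAB match, was the most abundant member per length in every library. Its level in RPKM (RPM per kilobase of gene length) was 75.4 in WT, 75.4 under the label cKO, 82.8 in Young and 88.9 in Old. It alone supplied 26.1%, 25.1%, 27.3% and 33.9% of the members' reads. Zfp706, which encodes a small protein of 76 residues with 1 finger, came second in WT (62.1 RPKM) and Young (51.8) and stood below Zfp219 in the library labelled cKO (31.5) and Old (37.2).

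Zfp219, a partner of Sox9 in cartilage, took the second place in the other two, with 15.8 RPKM in WT, 39.6 under the label cKO, 26.3 in Young and 41.8 in Old. Zfp180, with 12 fingers, had 17.1, 27.7, 14.8 and 13.5 RPKM. Zfp362 had 7.64, 16.3, 9.41 and 8.82 RPKM, high in the library labelled cKO alone. The next genes have uses outside transcription. Zfp207 (BuGZ), which binds spindle microtubules and the checkpoint protein Bub3, had 11.1, 7.84, 8.93 and 9.58 RPKM. Zfp106, an RNA-binding protein needed by motor neurons and muscle, had 7.99, 11.8, 8.25 and 6.10. Zfp414 was among the steadiest, at 6.28, 7.61, 6.76 and 6.47 RPKM.

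The first members with a KRAB match, in the order of mean level per length, were Zfp617 and Zfp101. Zfp617 had 10.8 RPKM in WT, 4.89 under the label cKO, 5.85 in Young and 4.80 in Old. Zfp101 had 10.7, 5.52, 6.90 and 2.52 RPKM. Both were highest in WT. Levels of Zfp617, Zfp106 and Zfp414 are uncertain, because 42.2%, 24.7% and 26.3% of the 50-base words of their transcripts also occur in transcripts of other genes. Such sharing was over 10% for 20 members, its median was 1.39%, and 31 members had none.

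**Figure D1:**
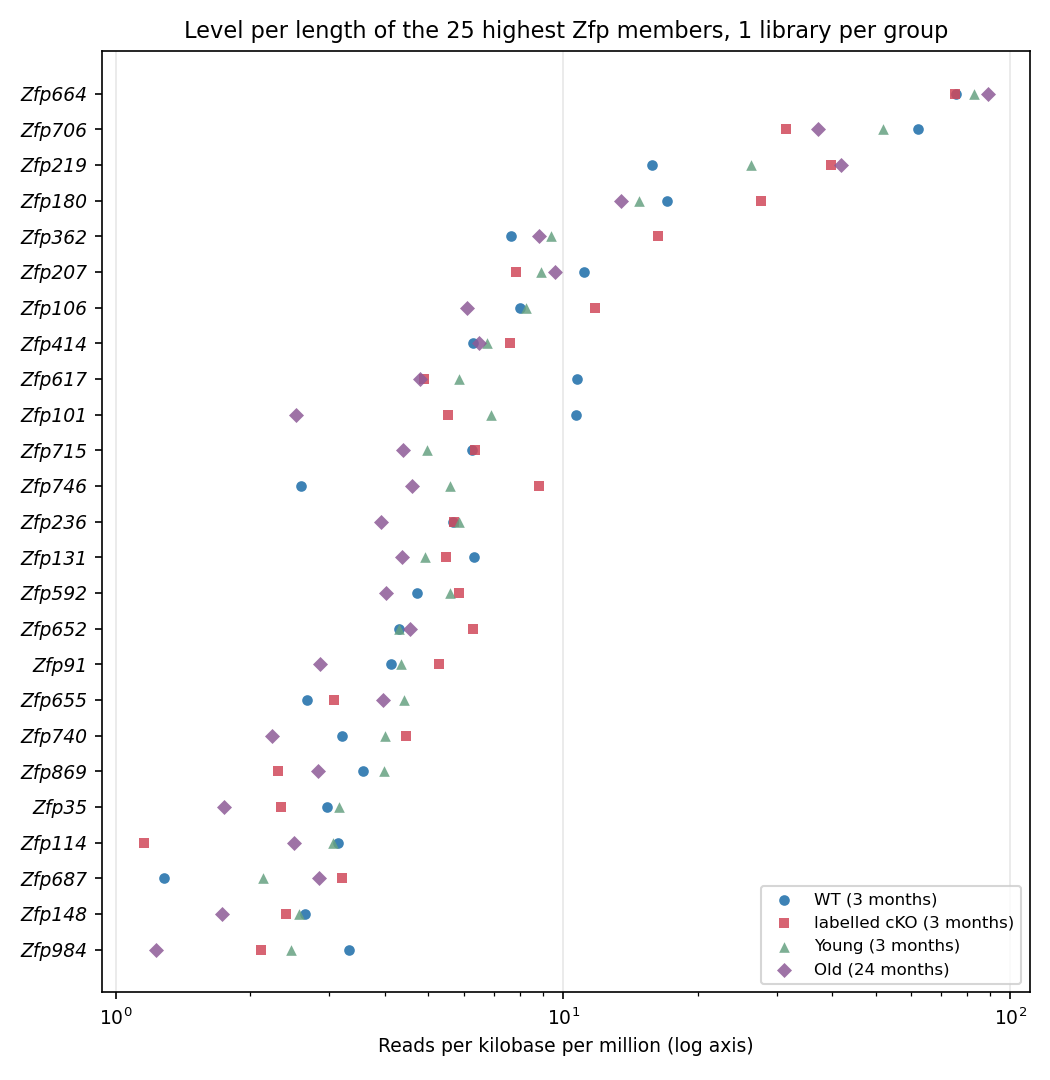
Level per length of the 25 members with the highest mean, in RPKM on a log axis, with 1 point per library. Zfp664 leads in each library at 75.4 to 88.9, Zfp706 and Zfp219 follow, and Zfp101 is lowest in Old at 2.52.

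The first comparison asked which members differed between the library labelled cKO and its WT littermates. Ratios are reads over library sizes scaled by the trimmed mean of M-values (TMM), with an exact 95% interval. A gene passed the size rule where it had 100 or more reads in 1 of the libraries and its whole interval lay beyond 2-fold. Of the 59 members with at least 100 reads, 2 were higher and 2 were lower in the library labelled cKO. Over all 6273 such genes, 2.52% passed as higher and 1.71% as lower, beside 3.39% of the members in each direction, a share that rests on 2 genes.

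The larger of the higher pair was Zfp746 (PARIS), a parkin substrate that represses the gene of PGC-1alpha. It had 375 reads in WT, 1255 under the label cKO, 817 in Young and 683 in Old. WT was the low library and the one labelled cKO the high one, with a ratio of 3.29 (2.93 to 3.70). Zfp219 had 1281, 3171, 2158 and 3488 reads, lowest in WT and highest in Old, and its ratio was 2.43 (2.28 to 2.60). Neither of the pair had a KRAB match, which does not show that the domain is absent.

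The lower pair both had a KRAB match. Zfp81 had 144 reads in WT, 35 under the label cKO, 92 in Young and 34 in Old, a ratio of 0.239 (0.160 to 0.348). Its low libraries were thus the one labelled cKO and Old, at nearly the same count. Zfp114 had 250, 91, 247 and 205 reads, low only in the library labelled cKO, with a ratio of 0.358 (0.278 to 0.456), but 29.5% of its words are shared with other transcripts.

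All 4 calls used WT as the reference. Against Young, the other 3-month library, none of 65 members with at least 100 reads passed in the library labelled cKO, where 2.07% of all such genes passed as higher and 0.793% as lower. The ratio to Young was 1.68 (1.54 to 1.84) for Zfp746, 1.61 (1.53 to 1.70) for Zfp219, 0.417 (0.274 to 0.622) for Zfp81 and 0.404 (0.314 to 0.516) for Zfp114. These point the same way as the ratios to WT, with which they share the cKO library. Between WT and Young themselves, 0 of 66 members passed in either direction, beside 0.439% of genes higher and 0.565% lower in WT. The WT to Young ratio was 0.502 (0.443 to 0.567) for Zfp746 and 0.649 (0.605 to 0.695) for Zfp219, so part of the distance to WT was also present between the 2 libraries of 3-month mice of genotype WT.

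**Figure D2:**
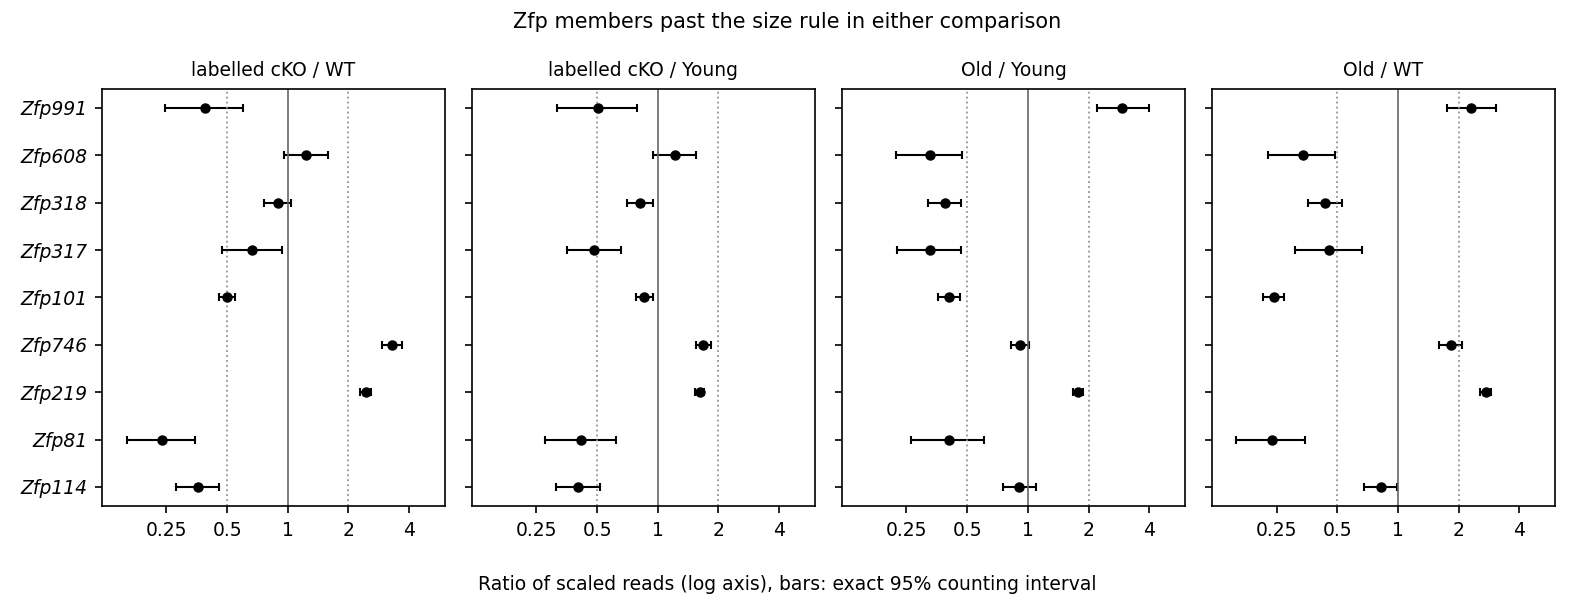
Ratios of the 9 members that passed the size rule in either comparison, on a log axis, with exact 95% counting intervals and dotted lines at 2-fold. Zfp746 and Zfp219 lie right of the 2-fold line in the first panel, at 3.29 and 2.43, and left of it against Young, at 1.68 and 1.61.

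Further members lay near 2-fold without passing. The closest was Zfp687, with 137 reads in WT and 337 in the library labelled cKO, a ratio of 2.42 (1.98 to 2.97), which did pass with library totals or DESeq2 size factors and made 3 higher calls of 2. Zfp706 was at 0.491 (0.469 to 0.514), with 5562 reads in WT and 2778 in the library labelled cKO. Zfp101 had 0.50 (0.456 to 0.547) and Zfp617 0.440 (0.379 to 0.510), both KRAB proteins. Zfp362 had 2.07 (1.84 to 2.33). Zfp664 differed little, at 0.967 (0.941 to 0.993).

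Across all 121 members the median log2 ratio was -0.16, beside -0.01 over all genes with at least 20 reads. 52 members were above 1 and 69 below. This median turned sign with a correction for base composition. Across the 121 members, the log2 ratio rose with the GC content of the transcript (Spearman rho 0.59), and across all genes the rank correlation was weaker (rho 0.30). Members of one library pair share those libraries and their depth, so these values are descriptions. Centring each ratio on the median of all genes in the same of 10 GC bins, an alternative chosen after seeing the data, moved the members' median to 0.0077 and left 3 calls. Zfp219, with 62.1% GC, went to 1.83 and no longer passed, while Zfp746 stayed at 2.86, Zfp81 at 0.292 and Zfp114 at 0.378. Among the members near 2-fold, centring moved Zfp706 to 0.579, Zfp101 to 0.590, Zfp617 to 0.520 and Zfp362 to 1.55, each nearer to 1.

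The rank correlation with GC content was strongest in the comparisons with WT. It was 0.59 among members for the library labelled cKO over WT, -0.53 for WT over Young and 0.47 for Old over WT, but 0.27 for the library labelled cKO over Young and 0.15 for Old over Young. Over all genes the same order gave 0.30, -0.31, 0.30, 0.04 and 0.11. Comparisons that share a library are not independent of one another.

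**Figure D3:**
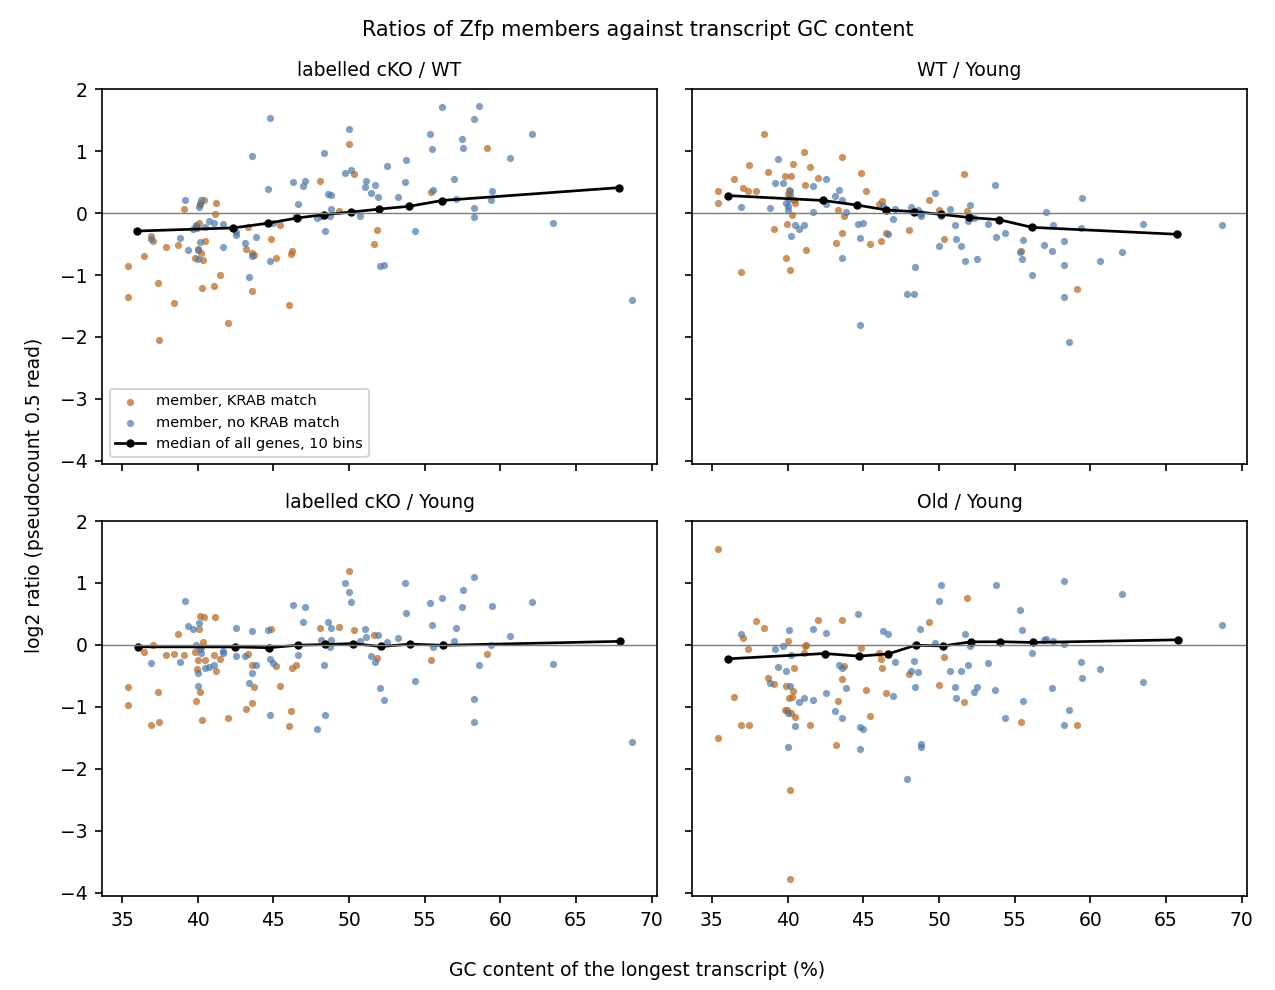
Log2 ratio of each member against the GC content of its longest transcript in 4 comparisons, with the median of all genes in 10 GC bins as a black line. The rank correlation is positive in the library labelled cKO over WT (rho 0.59 among members), negative in WT over Young (-0.53) and weaker in the panels without WT (0.27 and 0.15).

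Members with and without a KRAB match lay apart in the same comparison. The 48 KRAB members had a median log2 ratio of -0.51 in the library labelled cKO over WT, with 37 below 1, and the 73 others a median of 0.20, with 32 below 1. KRAB members are poor in GC, with a median of 41.1% against 48.8% for the other members and 49.3% for all genes. With GC centring the gap between the medians shrank from -0.72 to -0.43, with 31 of 48 KRAB members and 28 of 73 others below the median of their bin. Centring takes out the trend of all genes, not that of the members. From the lowest to the highest GC bin, medians ran from -0.29 to 0.41 over all genes and from -0.44 to 0.89 among members. The centred gap may thus still hold a part that goes with GC content, which was not tested. Against Young the gap was -0.23, and it stayed at -0.23 with GC centring. In summed level, KRAB members made up 378 RPM in WT, 269 under the label cKO, 339 in Young and 221 in Old.

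**Figure D4:**
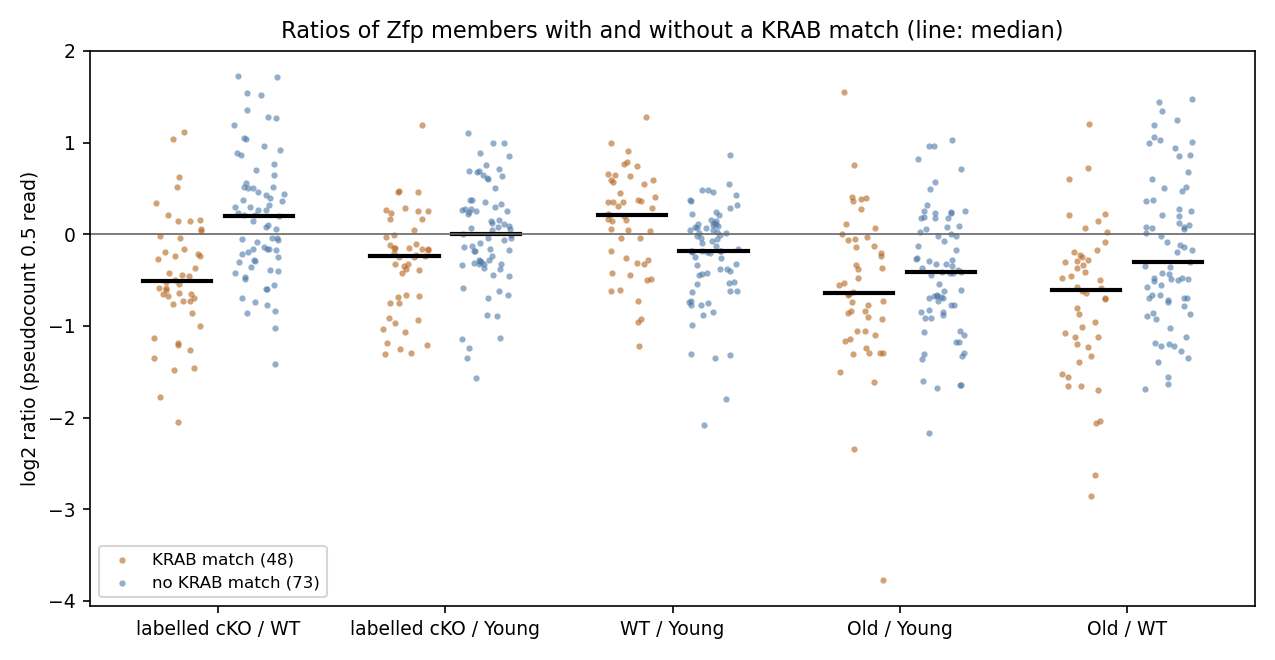
Log2 ratio of each of the 48 members with a KRAB match and the 73 without, in 5 comparisons, with the median of each as a line. The medians are -0.51 and 0.20 in the library labelled cKO over WT and -0.64 and -0.41 in Old over Young, where both sets lie below 0.

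The second comparison asked which members differed with age. Members were lower in Old as a set: 89 of 121 were below 1 and 32 above, with a median log2 ratio of -0.44, while over all genes with at least 20 reads the median was -0.06 and 47.3% were above 1. In pooled platelets, fewer cells that carry a transcript and less of it per cell cannot be told apart. Of the 65 members with at least 100 reads, 1 passed as higher and 4 as lower, beside 4.26% of 6519 genes as higher and 4.30% as lower. This was 1.54% and 6.15% of the members, shares that rest on few genes, and most members below 1 did not pass. With library totals in place of TMM sizes the split of calls went from 1 higher and 4 lower to 0 and 7, and the median to -0.60.

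Zfp101, the most abundant of the 4 lower members, had 1427 reads in WT, 726 under the label cKO, 930 in Young and 346 in Old. Old was the lowest of the 4 libraries, and the ratio to Young was 0.407 (0.359 to 0.461). Against WT it was 0.243 (0.215 to 0.273). Of the 60 members with at least 100 reads in Old or WT, 1 passed as higher in Old (Zfp219) and 6 as lower (Zfp81, Zfp101, Zfp758, Zfp266, Zfp608 and Zfp68), beside 4.54% and 4.22% of all such genes; this comparison shares the Old library. Its neighbour Zfp81, whose finger is printed above beside it, had the close ratio of 0.405 (0.265 to 0.606) in Old over Young, but its count of 92 reads in Young and its interval both kept it from passing. Only 2.02% of the words of Zfp101 and 0.293% of those of Zfp81 occur in other genes' transcripts.

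Zfp318, which B cells need to express IgD, had 354, 322, 434 and 154 reads. It was similar in the 3 libraries of 3-month mice and low in Old, at 0.389 (0.321 to 0.468) of Young. B cell markers moved the same way, from 358 RPM in Young to 102 in Old. Of the 11 with at least 100 reads, 7 passed as lower (63.6%, beside 4.30% of all genes). Their part in the difference of Zfp318 was not tested. Zfp608, which represses the Rag genes in thymocytes, had 116, 145, 131 and 39 reads and a ratio of 0.326 (0.222 to 0.469). T and NK cell markers summed to 60.0 RPM in WT, 56.3 under the label cKO, 108 in Young and 58.1 in Old. Of the 7 with at least 100 reads in Young or Old, 2 passed as lower in Old (28.6%, beside 4.30% of all genes). Their part in the difference of Zfp608 was not tested either. The KRAB protein Zfp317 had 90, 61, 138 and 41 reads, highest in Young and lowest in Old, with a ratio of 0.325 (0.224 to 0.464).

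Zfp991, a KRAB protein of chromosome 4, was the member higher in Old. It had 76 reads in WT, 30 under the label cKO, 65 in Young and 175 in Old, a ratio of 2.95 (2.21 to 3.98). Its identity is uncertain, since 82.2% of its words also occur in other transcripts, most of them in the pseudogene Znf41-ps. With GC centring Zfp991 stayed at 3.44 and Zfp608 at 0.327, but Zfp101 (0.448), Zfp318 (0.441) and Zfp317 (0.358) no longer passed, because their interval bounds came within 2-fold. Zfp777, with 222 reads in Young and 82 in Old and a ratio of 0.404 (0.310 to 0.523) before centring, then passed as lower.

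The 10 members with the highest level per length went both ways. Zfp664 was at 1.2 (1.17 to 1.23) in Old over Young with 11770 and 12862 reads, and Zfp219 at 1.77 (1.68 to 1.87) with 2158 and 3488. Below 1 were Zfp101, one of the 4 calls, Zfp706 at 0.800 (0.765 to 0.836), Zfp106 at 0.824 (0.763 to 0.889) and, with an interval that holds 1, Zfp617 at 0.914 (0.774 to 1.08). Zfp207, the spindle protein, was above 1 at 1.2 (1.1 to 1.3). Near 1 were Zfp180 at 1.02 (0.937 to 1.10), Zfp362 at 1.04 (0.922 to 1.18) and Zfp414 at 1.07 (0.888 to 1.28). With library totals Zfp664 was at 1.07 and Zfp219 at 1.59, while Zfp180, Zfp362 and Zfp414 turned to just below 1 (0.912, 0.937 and 0.958). With the members ordered by mean level per length, the median log2 ratio was -0.83 in the lowest 31. It was -0.50 and -0.57 in the next sets of 30 each and -0.29 in the highest 30. The membership threshold used values that are not per length. The threshold admitted 16 members through 1 library, 6 of them through Young alone and 3 through Old alone. Where the mean of the 4 values was at least 50, the median was -0.42.

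The lowest ratio belonged to Zfp60, a KRAB protein with 19 fingers named here after its values were seen. It had 32 reads in WT, 36 under the label cKO, 67 in Young and 4 in Old, a ratio of 0.0654 (0.0173 to 0.175), and was below the count minimum of 100 reads. Zfp748, with 23 fingers, had 46, 52, 41 and 7 reads and a ratio of 0.187 (0.0708 to 0.421). KRAB members had a median log2 ratio of -0.64 in Old over Young, with 38 of 48 below 1, and the others -0.41, with 51 of 73 below. This gap of -0.23 went to -0.022 among members with a sum of at least 100 reads, and to -0.061 with GC centring.

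The 2 comparisons share no library, so a member's ratios in them can be set side by side. Across the 121 members they were only weakly related (Spearman rho 0.14, Pearson r 0.11, without a p because members share both library pairs), beside 0.03 and 0.01 over 10940 genes. Both ratios were below 1 for 55 members and above 1 for 18, while 34 were above 1 in the library labelled cKO over WT and below 1 in Old over Young, and 14 the reverse. Of 55 members with at least 100 reads in both, 0 passed in both, beside 0.451% of 5986 genes. Zfp219 was high in both and Zfp81 and Zfp101 were low in both, whereas Zfp991 went from 0.388 (0.245 to 0.599) in the first to 2.95 in the second.

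**Figure D5:**
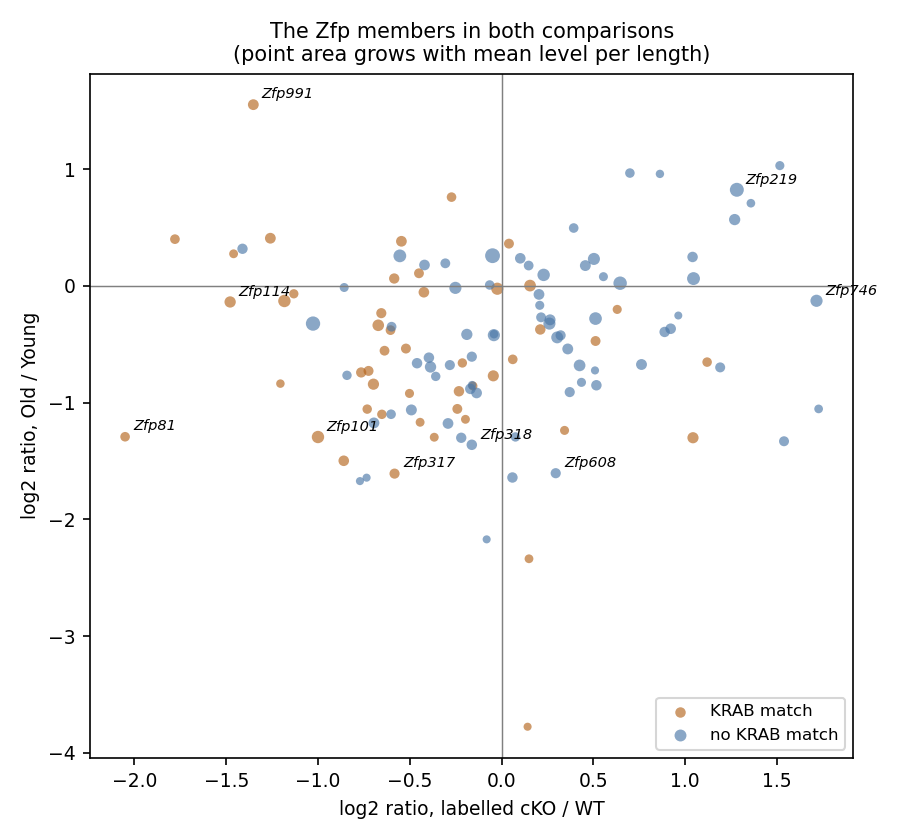
Log2 ratio in Old over Young against that in the library labelled cKO over WT for the 121 members, with point area growing with mean level per length. Most points lie below 0 on the vertical axis (89 of 121), and the relation between the axes is weak (rho 0.14).

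Zfp genes lie in clusters, and 47 members fell into 18 groups whose genes were at most 200000 bases apart. Chromosome 7 held the most members (25), followed by 17 (11) and 8 (10). On chromosome 9 (chr9:20345136-20521417) the KRAB genes Zfp560, Zfp26, Zfp426 and Zfp266 were all below 1 in the library labelled cKO over WT, with a median log2 ratio of -0.97, and 3 of 4 were below 1 in Old over Young. The exception, Zfp426, had 210 reads in WT, 89 under the label cKO, 122 in Young and 148 in Old. On chromosome 6 (chr6:47835661-48086593) Zfp398, Zfp282, Zfp777 and Zfp746 were all below 1 in Old over Young, with a median of -1.19. These counts stand beside 89 of all 121 members below 1 in Old over Young. Of the 48 KRAB members, 37 were below 1 in the library labelled cKO over WT and 38 in Old over Young. The groups described were picked from the 18 after their values were seen.

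Neighbours did not always go together. Zfp777 and Zfp746 of the chromosome 6 group were at 2.07 (1.59 to 2.70) and 3.29 in the library labelled cKO over WT, while Zfp398 was at 0.872 (0.624 to 1.22). On chromosome 7 (chr7:24081924-24183188) Zfp112 was at 2.19 (1.55 to 3.13) and Zfp180 at 1.57 (1.46 to 1.67), but Zfp235 was at 1.03 (0.756 to 1.40) and Zfp114 at 0.358. By contrast, on chromosome 8 (chr8:71882019-71993792) the KRAB genes Zfp709, Zfp617 and Zfp961 were all below 1 in the library labelled cKO over WT. Their median log2 ratio of -1.18 is the value of Zfp617, whose level is uncertain. In Old over Young 2 of these 3 were below 1.

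The partners of these proteins were also measured. Of 23 genes of the KRAB co-repressor complex, 0 of 21 with at least 100 reads passed in the first comparison and 0 of 20 in the second. Over all genes 2.52% passed as higher and 1.71% as lower in the first, and 4.26% and 4.30% in the second. With so few genes in the list, 0 calls say little. The median log2 ratio of the list was 0.03 in the library labelled cKO over WT and -0.48 in Old over Young. Trim28 itself had 582 reads in WT, 606 under the label cKO, 759 in Young and 498 in Old, with ratios of 1.02 (0.911 to 1.15) and 0.718 (0.640 to 0.805). Of 4 genes of the HUSH silencing complex, 2 had enough reads in Old over Young and 1 of them was lower (4.30% of all genes were), the subunit Pphln1, with 148, 146, 163 and 50 reads and a ratio of 0.336 (0.240 to 0.464).

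The lists of related genes differed in how far they lay below Young. Among other C2H2 factors of blood the median log2 ratio was 0.11 in the library labelled cKO over WT and -0.54 in Old over Young. In the first, 0 of 25 with at least 100 reads passed, beside 2.52% of all genes as higher and 1.71% as lower. In the second, 2 of the 28 with at least 100 reads passed as lower (7.14%, beside 4.30% of all genes). These were the lymphoid factor Ikzf3, with 1570 reads in Young and 593 in Old (0.414, 0.376 to 0.455), and the immediate-early factor Egr3, with 120 and 15 reads (0.137, 0.0743 to 0.235). The 138 genes annotated as zf-C2H2 other than numbered Zfp genes had a median of -0.40 in Old over Young. Of the 46 with enough reads, 0 were higher and 3 lower (6.52%). Blood factors were not removed from this list, so the lists can share genes and calls. The 169 Zfp genes under the level threshold had a median of -0.33. Among 476 genes of other transcription factor families the median was -0.21, with 10 higher (3.58%) and 28 lower (10.0%) of 279 with enough reads, beside 4.26% and 4.30% of all genes. The members' median of -0.44 thus lay between those of the C2H2 lists and was farther from 0 than that of the other families, and the difference was not tested.

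Few genes of the other finger families had enough reads for a call. Among 34 Zbtb genes, whose BTB domain pairs the proteins, 13 had at least 100 reads in the first comparison and 11 in the second. The median log2 ratio was -0.11 and -0.26, and 1 gene passed as higher in each, Zbtb42 in both. This was 7.69% and 9.09%, shares that rest on 1 gene, beside 2.52% and 4.26% of all genes as higher. Over all genes with enough reads in both comparisons, 0.451% passed in both, in any direction. Zbtb42 had 45 reads in WT, 143 under the label cKO, 60 in Young and 164 in Old, with ratios of 3.12 (2.22 to 4.47) and 2.99 (2.21 to 4.09). Of Zscan genes 1 and 1 had enough reads, of Zkscan genes 0 and 2 and of lettered Zfp genes 5 and 6, so their 0 calls say little. Their median log2 ratios in Old over Young were 0.02, -0.78 and -0.44. Of the 8 CCCH decay factors, which bind AU-rich RNA with another kind of finger, 0 of 7 with enough reads passed in either comparison. Over all genes 2.52% and 1.71% passed as higher and lower in the first and 4.26% and 4.30% in the second, so 0 of 7 says little. The median log2 ratios were 0.19 and -0.29. Zfp36l1 and Zfp36l2 are in this list and also among the lettered Zfp genes.

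The authors' deposited table gives its own adjusted p-values, each of which compares 2 libraries. By these, at a threshold of 0.05, 1 of 121 members was higher (0.826%) and 3 were lower (2.48%) in the library labelled cKO, beside 2.05% and 1.74% of all 16467 genes. In Old, the authors' deposited table has 1 member higher (0.826%) and 13 lower (10.7%), beside 5.88% and 6.51% of 16180 genes. These shares are not like for like, because the members passed a level rule and the other genes did not. Only 11537 of the 16467 genes and 11694 of the 16180 had at least 20 reads over both libraries. In the authors' deposited table, Zfp746 had a log2 fold change of 1.72 in the first comparison and Zfp991 one of 1.56 in the second.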

How the data were processed

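Each of the 4 groups is 1 RNA-seq library of platelets pooled from 7 mice. The submitters' processing notes name the build mm10 and list DESeq2 1.20.0, featureCounts 1.5.0-p3, HISAT2 2.0.5 and CASAVA, with no role or order. No source used here says how reads shared by genes or antisense reads were counted. The authors deposited 2 tables with a scaled signal per gene and library. Values are multiples of 1 step per library, the worth of 1 read, and at least 99.96% of values in each library came out whole within 0.02 read. These recovered reads were used in place of the counts that the design assumed. The deposited tables also give a log2 fold change and a p-value per gene, from a test that no source used here names. A further 4 per-sample columns match no sample and were not used.

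Members were found by the rule on the deposited values, and 116 of 121 had the same coordinates in GENCODE M21 (GRCm38). TMM scaling (edgeR 4.0.16, R 4.3.3) was done for each pair of libraries, on the genes listed in both tables where the pair crosses them, which gave a size ratio of 0.913 for Old over Young and 1.02 for the library labelled cKO over WT. Exact 95% Clopper-Pearson intervals cover counting error only, since amplified reads are not independent molecules. Log2 ratios use a pseudocount of 0.5 read and need at least 20 reads over both libraries. Because there is 1 library per group, no count test was run. RPM and RPKM are recovered reads scaled to the library total, the latter also per kilobase of the gene length in the tables. The script was tested on simulated data.

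KRAB and SCAN domains were found with PyHMMER 0.12.3 profiles (built from 188 and 30 windows, E-value at most 1e-05) and fingers with the pattern C-N2 to 4-C-N12-H-N3 to 5-H, in proteins translated from GENCODE coding sequences, where the design assumed RefSeq proteins. A protein without a match may still carry the domain. GC content is that of the longest transcript.

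Genes named are members that passed the size rule, the 10 highest per length, those at the threshold, those with the most and fewest fingers, and up to 4 called genes of each context list. Zfp60, Zfp64, Zfp300, Zfp771, Zfp687, Zfp777, Trim28, the members of chromosomal groups and those that passed in Old over WT were named after their values were seen. The members and lists were chosen with earlier results of these data known. Alternatives were library totals, DESeq2 1.42.0 size factors, other thresholds, pseudocount and filter, and, added after seeing the data, GC centring, Young as the reference and leaving out members with shared words or Zfp664.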

Additional observations from a re-analysis of the deposited data

How the results depend on the processing

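Of 86 alternatives to the counts, medians and sums, 55 were labelled as close to the value reported. Close meant a count within 1.5-fold, so that 3 calls in place of 2 were close, or a median within 0.1 log2. All alternatives to the summed levels were labelled as moved whatever their value. The tally is therefore partly set by these rules and does not measure how stable the results are. In the library labelled cKO over WT, members called higher went from 2 to 8 with a 1.5-fold bound, 1 with GC centring and 0 with Young as the reference, and members called lower from 2 to 6 with a 1.5-fold bound, 1 without members that share words and 0 with Young as the reference. The median log2 ratio turned from -0.16 to 0.0077 with GC centring. In Old over Young, members called higher went from 1 to 0 with library totals, 2 with a 1.5-fold bound and 0 without members that share words. Members called lower went from 4 to 7 with library totals, 7 with a minimum of 50 reads, 13 with a 1.5-fold bound and 2 with GC centring. The median went from -0.44 to -0.60 with library totals and -0.61 without members that share words. In WT over Young, 2 members were higher and 2 lower with a 1.5-fold bound, 2 were lower with a minimum of 50 reads, and the median went from -0.02 to -0.13 with library totals. The summed level of 2267, 2350, 2373 and 2053 RPM in WT, cKO, Young and Old became 2944, 2970.0, 3018 and 2492 without the 10 most abundant genes of each library in the total, and 1676, 1759, 1725 and 1357 without Zfp664. The KRAB minus other median went from -0.72 to -0.43 with GC centring in the library labelled cKO over WT, and from -0.23 to -0.022 among members with at least 100 reads and -0.061 with GC centring in Old over Young. Scaling and filter changes act by construction, and for the GC trend the cause was not tested. Of 34 ratios of named members, DESeq2 size factors moved 0, library totals 8 and GC centring 11.

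No paired analysis was possible because each group is 1 library without replicate numbers. For the same reason no spread between pools is known, and leaving out a replicate was not an option. Depth limits the members below 100 reads, which have wide intervals and do not enter the size rule. Reads of related genes in members with shared words were not separated.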
